A study of Mus musculus with 3 samples.

Results

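The enzymes, carrier and regulators of fatty acid synthesis and of its NADPH supply were examined as a group of 7 genes, Fasn, Acly, Slc25a1, Me1, Pgd, Thrsp and Srebf1, in the liver of male mice lacking apolipoprotein E. The genes were chosen by symbol, and every probe set that the platform annotation gives to one of them was kept separately. All 7 genes were on the array, with 9 of its 12488 probe sets, of which 10833 have a single gene symbol. Each of the 3 samples is liver RNA on 1 Affymetrix expression array, and the value is a MAS5 signal, the hybridisation intensity of a probe set on a linear scale.

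By the design text all mice were homozygous apoE knockout males of C57BL/6JxOLA129 background, 3 months old at the start, and were fed for 12 weeks. The control diet held linoleic acid at 1.0% by weight. The other diets held as much of a conjugated linoleic acid (CLA), namely the c9,t11 isomer on one and the t10,c12 isomer on the other, which differ in where the conjugated double bonds lie and in which of them is cis. To these diets 10, 10 and 9 mice were assigned. The design text describes semi-purified diets with 30% of energy as fat, whereas the sample labels name a western diet, so the diet of the arrayed mice is not settled. The labels do not say whether an array held RNA of 1 mouse or of several, and no liver of a mouse with intact Apoe was included. Dose and duration were the same for both isomers, so the transcripts can be compared between each isomer and linoleic acid and between the isomers. With 1 array per diet no difference has a replicate check and no p-value is given, and in whole liver fewer cells of a type and less RNA per cell cannot be told apart.

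As background, the liver turns surplus carbohydrate into fatty acids in the cytosol. Citrate leaves the mitochondrion through the carrier encoded by Slc25a1, ATP citrate lyase (Acly) splits it into acetyl-CoA and oxaloacetate, and fatty acid synthase (Fasn) builds palmitate from acetyl-CoA and malonyl-CoA. The reductions consume NADPH, which malic enzyme (Me1) makes while turning malate into pyruvate and which 6-phosphogluconate dehydrogenase (Pgd) makes in the pentose phosphate pathway. Srebf1 encodes SREBP-1, the insulin-responsive transcription factor of this programme, and Thrsp encodes Spot 14, a small protein induced by thyroid hormone and carbohydrate that promotes lipogenesis.

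The start regions of Fasn, Me1 and Pgd are shown because these genes had the largest differences on the t10,c12-CLA array. They come from RefSeq, build GRCm38.p6, and run 5′ to 3′ from 120 bases before to 20 bases after an annotated start. Me1 and Pgd have 2 annotated starts each, and the one farther upstream on the gene's strand is shown. Capitals mark matches to the motifs searched. The last match in Me1, a GC box from +16 to +21, is cut at the end of the shown stretch.
Fasn, chr11:120824528-120824667, strand minus: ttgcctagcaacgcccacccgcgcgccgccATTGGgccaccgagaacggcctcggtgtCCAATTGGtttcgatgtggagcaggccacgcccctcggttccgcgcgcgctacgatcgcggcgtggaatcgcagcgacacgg
Me1, chr9:86695895-86696034, strand minus: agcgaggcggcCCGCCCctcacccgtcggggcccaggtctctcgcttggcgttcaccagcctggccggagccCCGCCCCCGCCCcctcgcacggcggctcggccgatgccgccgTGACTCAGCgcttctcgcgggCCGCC
Pgd, chr4:149166686-149166825, strand minus: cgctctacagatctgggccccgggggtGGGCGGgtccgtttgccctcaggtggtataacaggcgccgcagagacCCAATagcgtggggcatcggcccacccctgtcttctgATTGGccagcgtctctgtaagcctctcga

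These windows differ in the motifs they hold. Fasn holds the CCAAT box (CCAAT, a site of the factor NF-Y) 3 times, on the reverse strand at -90 and -59 and on the forward strand at -62, the latter pair overlapping. Me1 holds GC boxes (GGGCGG, a site of Sp1) on the reverse strand and 1 match to the antioxidant element (TGACNNNGC), from -6 to +3 around the start. The shown start of Pgd holds 1 GC box and the CCAAT box once on each strand, and its other start has an antioxidant element match from +4. Among 32851 RefSeq windows of 300 bases, searched on both strands, 37.4% held the CCAAT box, 35.7% the GC box and 12.4% the antioxidant element. The nuclear receptor hexamer (AGGTCA) was found among the members only at Acly, against 16.3% of windows, and the E-box (CACGTG) only at Slc25a1, against 7.15%. The sterol element (TCACNCCAC) occurred in 1.24% of windows and in no member's window. These are matches of letters, not measured sites.

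The members did not behave as a block across the diets. On the t10,c12-CLA array every measured member had a higher signal than on the control array, by 1.97-fold for Pgd, 1.89-fold for Me1 and 1.83-fold for Fasn, with the exception that Acly turned to the other side of control when the arrays were given equal medians. On the c9,t11-CLA array they parted, with Thrsp 1.51-fold higher and Me1 2.13-fold lower. Between the isomers the NADPH-supplying enzymes differed most, Me1 by 4.03-fold and Pgd by 2.19-fold, while Acly, Thrsp and Srebf1 differed by at most 1.09-fold. A probe set counted as measured in a comparison when its signal was above a floor of 490.3, the pooled median of all signals, on both arrays. Of the 9 member probe sets 8 were measured in each comparison, and the remaining one, a second probe set of Pgd, was below the floor on all 3 arrays.

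**Figure D1:**
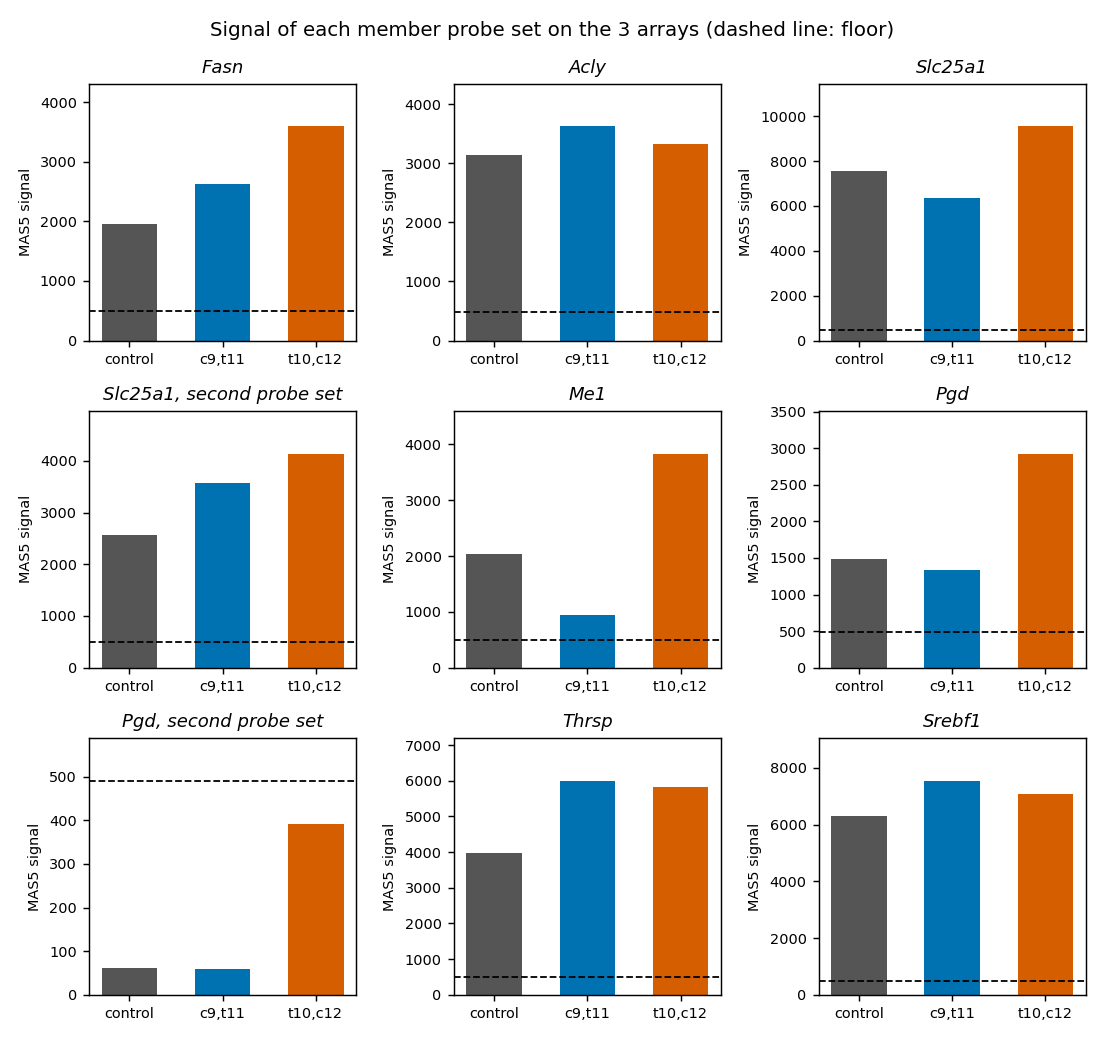
MAS5 signal (linear, each axis from 0) of the 9 member probe sets for the control diet and both CLA diets, 1 array per bar, with the floor of 490.3 as a dashed line. Me1 and Pgd are highest on the t10,c12-CLA array and lowest on the c9,t11-CLA array, Thrsp is nearly level on the CLA arrays, and the second probe set of Pgd lies below the floor throughout.

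Where 3 signals follow each other without a diet, their order is control, then c9,t11-CLA, then t10,c12-CLA. The synthase showed a graded order. Fasn (98575_at) gave 1963 on the control, 2626 on the c9,t11-CLA and 3594 on the t10,c12-CLA array. It was thus lowest on linoleic acid and highest on t10,c12-CLA, with a fold of 1.83 between these and 1.34 for c9,t11-CLA over control. On the log2 scale its difference from control was 0.87 on t10,c12-CLA and 0.42 on c9,t11-CLA. Among all measured probe sets 173 of 5037 had a difference at least as high on t10,c12-CLA, and 1075 of 4932 on c9,t11-CLA.

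Acly, which supplies the acetyl-CoA, was the flattest member. Acly (160207_at) gave 3142, 3622 and 3318. The highest and lowest of these differed by 1.15-fold, and the log2 difference of 0.08 on t10,c12-CLA turned to -0.01 when the arrays were brought to equal medians. On the t10,c12-CLA array the differences from control were thus 0.08 for Acly and 0.87 for Fasn, enzymes of the same pathway.

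Slc25a1, the citrate carrier, had probe sets that disagreed on c9,t11-CLA. The brighter one, 94807_at, gave 7567 on the control, 6337 on the c9,t11-CLA and 9541 on the t10,c12-CLA array. The other, 162358_i_at, gave 2574, 3570 and 4141 in the same order, and its identifier marks an incomplete probe selection. Both were highest on t10,c12-CLA, with log2 differences from control of 0.33 and 0.69, but on c9,t11-CLA the first stood at -0.26 and the second at 0.47. The direction for Slc25a1 on c9,t11-CLA is therefore not settled by these data.

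Me1 was the only member whose CLA signals lay on opposite sides of control by over 1.5-fold. Me1 (101082_at) gave 2029 on the control, 951 on the c9,t11-CLA and 3834 on the t10,c12-CLA array. Its log2 difference from control was -1.09 on c9,t11-CLA and 0.92 on t10,c12-CLA. The c9,t11-CLA signal was 1.94 times the floor. On c9,t11-CLA 100 of 4932 measured probe sets were as low, itself included, and on t10,c12-CLA 145 of 5037 were as high. Between the isomers the log2 difference was 2.01, and 17 of 5017 probe sets were as high.

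Pgd shared the high signal on t10,c12-CLA but not the low one on c9,t11-CLA. Pgd (95420_at) gave 1487 on the control, 1336 on the c9,t11-CLA and 2925 on the t10,c12-CLA array. The log2 difference from control was 0.98 on t10,c12-CLA, just short of 2-fold at 1.97-fold, and -0.15 on c9,t11-CLA. The second probe set, 161975_r_at, gave 61.6, 59.3 and 391, in the same order of arrays. All of these lie below the floor, so no fold is given, and the identifier marks a reduced set of probe rules.

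The regulators were alike on the isomers. Thrsp (160306_at) gave 3979 on the control, 5999 on the c9,t11-CLA and 5818 on the t10,c12-CLA array, so that both CLA arrays lay above control, by log2 differences of 0.59 and 0.55. Srebf1 (93264_at) gave 6290, 7549 and 7092, with log2 differences of 0.26 and 0.17. Between the isomers Thrsp stood at -0.04 and Srebf1 at -0.09, and both were slightly above 0, at 0.06 and 0.02, when the arrays were brought to equal medians. The probe set of Srebf1 is not assigned here to the SREBP-1a or SREBP-1c transcript, and processing of the protein, which controls its activity, is not measured by arrays.

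For a size of technical scatter, the log2 differences of the 2 brightest measured probe sets of each gene were compared. This gave an SD of a single log2 difference of 0.49 for c9,t11-CLA against control over 529 genes, 0.40 for t10,c12-CLA against control over 566, and 0.50 between the isomers over 553. It holds the measurement error and probe design in which the probe sets of a gene differ. It holds no variation between mice and no error that both probe sets share, such as that of array scaling. On c9,t11-CLA the members' differences exceeded it in 2 of 8 probe sets (Thrsp and Me1), against 31.9% of all measured probe sets. On t10,c12-CLA they did so in 5 of 8 (Fasn, Me1, Pgd, Thrsp and the second probe set of Slc25a1), against 34.3%. Between the isomers they did so in 3 of 8 (Me1, Pgd and the brighter probe set of Slc25a1), against 31.1%. The counts on c9,t11-CLA and between the isomers were thus near the background.

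On t10,c12-CLA against control the median log2 difference of the 8 measured probe sets was 0.62, with a range from 0.08 to 0.98, beside a median of -0.00 over 5037 measured probe sets. All 8 were above 0, against 49.6% of all measured probe sets, and 7 of 8 were so after equal medians. At least 1.5-fold higher were 4 of 8, Fasn, Me1, Pgd and the second probe set of Slc25a1, against 9.65% of all, and none was 1.5-fold lower, against 8.76%. Without the second probe set of Slc25a1, whose identifier marks it, 3 were at least 1.5-fold higher. None was 2-fold higher or lower, against 2.18% and 1.87% of all.

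On c9,t11-CLA against control the median was 0.23, with a range from -1.09 to 0.59, beside 0.03 over 4932 probe sets. Of the 8 probe sets 5 were above 0, against 52.7% of all, so the count was near the background. At least 1.5-fold higher was 1 of 8, Thrsp, against 13.3% of all, and 1 of 8, Me1, was at least 1.5-fold lower, against 11.1%. None was 2-fold higher, against 3.24%, and Me1 was the 1 probe set at least 2-fold lower, against 2.76%. Both comparisons share the control array, so the control signal of a gene enters both of its differences.

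Between t10,c12-CLA and c9,t11-CLA, which do not involve the control array, the median was 0.33, with a range from -0.13 to 2.01, beside -0.05 over 5017 probe sets. On the t10,c12-CLA side 3 of 8 were at least 1.5-fold higher, Me1, Pgd and the brighter probe set of Slc25a1 at 1.51-fold, against 11.3% of all, and none was 1.5-fold lower, against 13.2%. After quantile normalization Slc25a1 stood at 0.54, short of 1.5-fold, and the count was 2. Me1 and Pgd were the 2 of 8 at least 2-fold higher, against 3.43%, and none was 2-fold lower, against 2.65%. Fasn, at 1.37-fold, lay between these and the flat group of Acly, Thrsp and Srebf1. With 1 array per isomer these sizes have no interval.

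**Figure D2:**
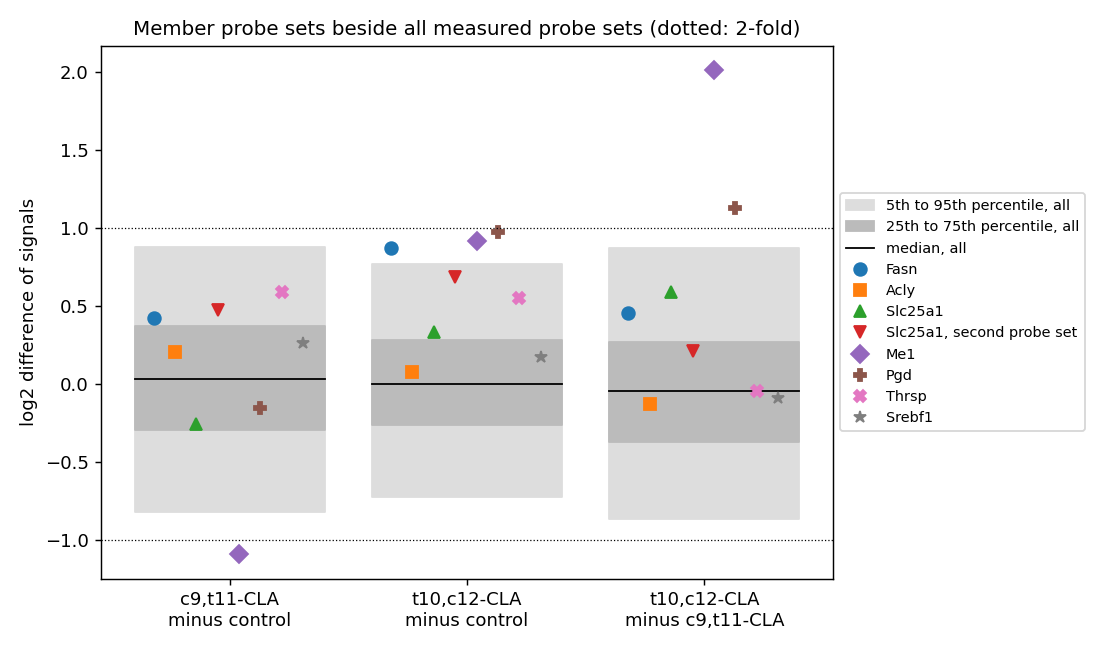
Log2 differences of signals for the 8 measured member probe sets (symbols) in the 3 comparisons, beside the 5th to 95th and 25th to 75th percentile of all measured probe sets (light and dark grey) and their median (line), with 2-fold marked by dotted lines. Fasn, Me1 and Pgd lie above the 95th percentile of 0.77 on t10,c12-CLA against control, and Me1 lies below the 5th percentile of -0.82 on c9,t11-CLA against control.

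Equal medians shifted all members of a comparison by the same amount, and quantile normalization by differing amounts. Bringing the arrays to equal medians took the median of all measured probe sets to -0.15 for c9,t11-CLA against control, from 0.03, so changes of the members are best read relative to it. Relative to all probe sets the members' median was 0.20 as deposited and 0.19 after equal medians on c9,t11-CLA, and 0.62 and 0.62 on t10,c12-CLA. Me1 on c9,t11-CLA stood at -1.29 after equal medians and -1.18 after quantile normalization, and its direction held in both.

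**Figure D3:**
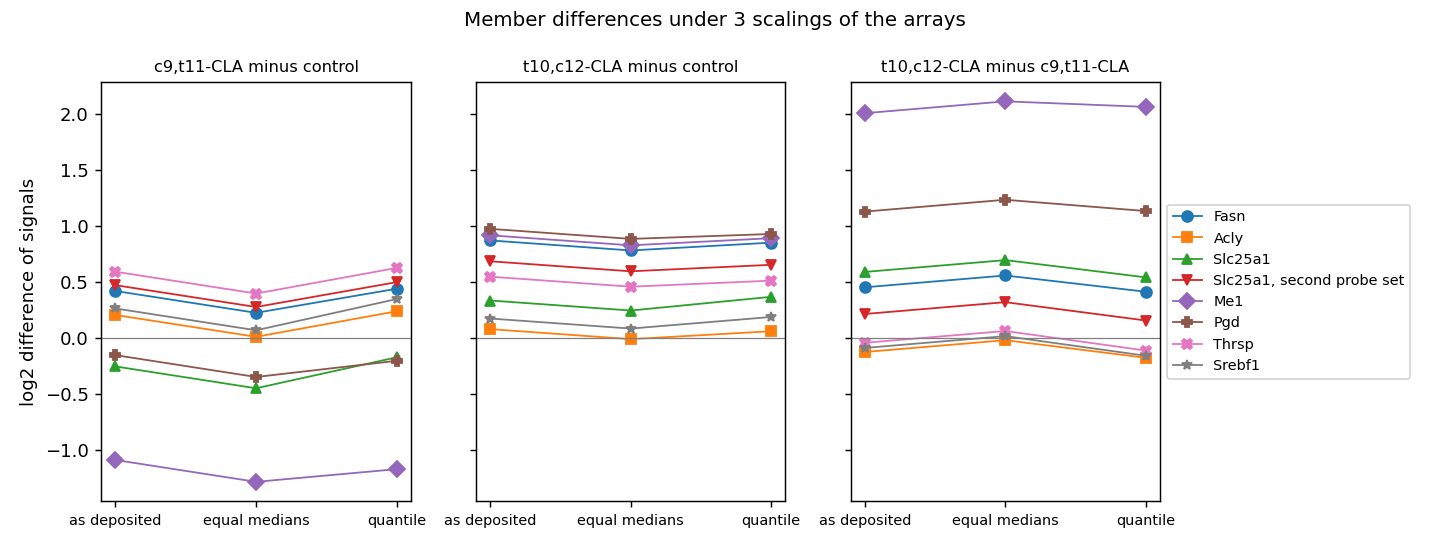
Log2 differences of the 8 measured member probe sets in the 3 comparisons, with signals as deposited, with equal array medians and after quantile normalization. The order of the largest differences is kept, while Acly on t10,c12-CLA against control and Thrsp and Srebf1 between the isomers lie near 0 and cross it under equal medians.

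Related genes were described from lists, each gene by its brightest probe set. Over all genes measured in this way, 2.98% were at least 2-fold higher and 2.78% lower on c9,t11-CLA than on control, 2.05% and 1.87% on t10,c12-CLA, and 3.47% and 2.56% between t10,c12-CLA and c9,t11-CLA. Their medians were 0.02, -0.01 and -0.05, and -0.16, -0.09 and 0.05 after equal medians. List medians after equal medians are to be read beside the latter. Genes named below from the pathway lists are those past 2-fold in a comparison or else the brightest of a list. Exceptions, chosen after their values were seen, are Idh2, Taldo1, Pklr, Pcx, Rxra and Scd1. The cell type markers named did not follow this rule. Cidec, Fabp4, Lep, Ttr, Vwf and Lyve1 were chosen after their values were seen, and some markers past 2-fold are not named.

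Other NADPH sources and pentose phosphate enzymes had smaller differences than Me1 and Pgd on t10,c12-CLA. Of 14 listed genes 9 were on the array and 8 measured, with medians of -0.08 on c9,t11-CLA and 0.19 on t10,c12-CLA against control, and of 0.30 between the isomers, where 7 of 8 were above 0 and 1 was 2-fold higher. That gene was Tkt, transketolase of the non-oxidative pentose phosphate branch, with signals of 4706, 2432 and 5628. Its order of arrays was that of Me1, and its log2 differences were -0.95 and 0.26 from control and 1.21 between the isomers. Taldo1, transaldolase, stood at 0.72 between the isomers, and Idh2, the mitochondrial NADP-dependent isocitrate dehydrogenase, at 0.68 on t10,c12-CLA against control.

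Other enzymes of fatty acid synthesis and desaturation did not share one direction. Of 13 listed genes 7 were on the array and 5 were measured in each comparison with control, with medians of -0.07 on c9,t11-CLA and 0.20 on t10,c12-CLA and none past 2-fold. Elovl5, an elongase of polyunsaturated fatty acids, gave 38359 on the control, 19312 on the c9,t11-CLA and 43793 on the t10,c12-CLA array, and its log2 difference of 1.18 between the isomers was the 1 of 6 past 2-fold. Scd1, the main stearoyl-CoA desaturase of the liver, stood at 0.62 and 0.54 on c9,t11-CLA and t10,c12-CLA by its brightest probe set, whereas a second probe set gave 60218 on control, 39771 on c9,t11-CLA and 31364 on t10,c12-CLA. The direction for Scd1 is therefore not settled. Acetyl-CoA carboxylase (Acaca, Acacb) and glucose-6-phosphate dehydrogenase (G6pdx) stand beside Fasn and Pgd in these pathways. They were on the lists but matched no probe set with a single gene symbol, so they were not analysed here.

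Genes of upstream carbon supply had no difference past 2-fold from control by their brightest probe sets. In the citrate and pyruvate shuttle list 8 of 10 measured genes were above 0 on t10,c12-CLA, with a median of 0.22, and 5 of 9 on c9,t11-CLA, with a median of 0.10 that became -0.10 after equal medians. Its bright members Mdh2, the mitochondrial malate dehydrogenase, Slc25a10, the dicarboxylate carrier, and Pdha1, a pyruvate dehydrogenase subunit, stood at 0.68, 0.42 and 0.68 on t10,c12-CLA. The glycolysis list had medians of -0.38 on c9,t11-CLA and -0.05 on t10,c12-CLA over 5 genes, the latter 0.10 after quantile normalization. Between the isomers its median was 0.63, with 4 of 5 above 0, and it was 0.74 after equal medians and 0.59 after quantile normalization. Its brightest members Tpi1, Pgk1 and the glucose transporter Slc2a2 stood at -0.16, 0.01 and -0.84 on c9,t11-CLA. Pklr, the liver pyruvate kinase, stood at 0.85 between the isomers, and its second probe set at 1.39 there and at 1.02 on t10,c12-CLA against control. Pcx, pyruvate carboxylase of the shuttle list, stood at 0.92 between the isomers but at -0.32 by its second probe set, so its direction is not settled.

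The regulators of lipogenic transcription were near the background, with medians of 0.07 and 0.01 over 11 genes on c9,t11-CLA and t10,c12-CLA, which became -0.12 and -0.08 after equal medians, and none past 2-fold by its brightest probe set. A second probe set of Rxra, the partner of nuclear receptors, stood at 0.96 and 1.03, beside 0.46 and 0.49 for the brightest. Nr1h3, the oxysterol receptor LXR alpha that induces Srebf1, gave 5894, 3916 and 4837 and was thus highest on control. Usf2 and Usf1, factors that bind the E-box, stood at -0.66 and -0.24 on t10,c12-CLA. The second probe set of Usf1 stood at 0.80 there and at 1.43 on c9,t11-CLA, so the direction of Usf1 on t10,c12-CLA is not settled. In glycerolipid assembly, the step after synthesis, Lpin1 was the 1 of 4 measured genes past 2-fold, with 3117, 7994 and 7588 on the 3 arrays. Lpin1, a phosphatidate phosphatase, was thus higher on both CLA arrays and level between them, the order seen for Thrsp.

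**Figure D4:**
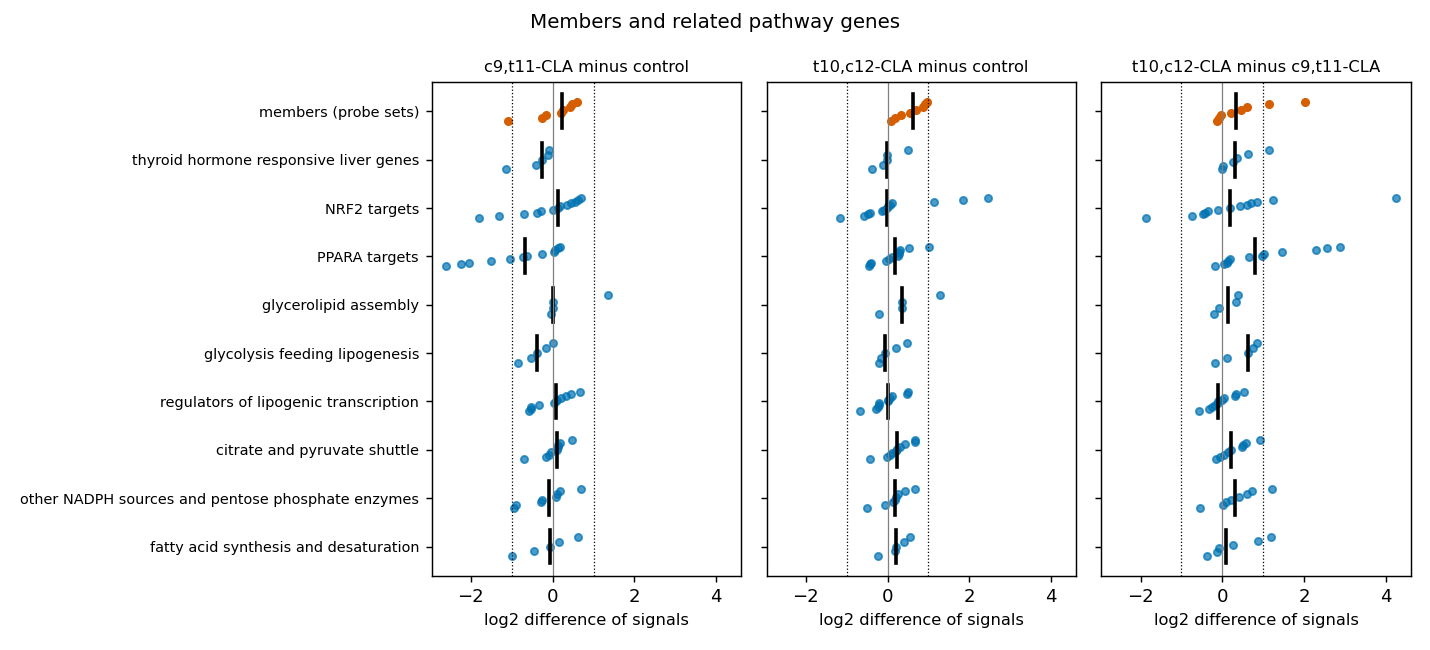
Log2 differences of signals in the 3 comparisons for the 8 measured member probe sets (orange) and for the measured genes of 9 related lists (blue, 1 probe set per gene), with list medians as black bars and 2-fold as dotted lines. On t10,c12-CLA against control the members' median of 0.62 lies to the right of the medians of all 9 lists, and on c9,t11-CLA the PPARA targets have the lowest median, -0.67.

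Me1 is also a known target of other factors, and their lists were set beside it. Targets of PPARA, the fatty acid receptor of the liver, had a median of -0.67 on c9,t11-CLA, where 5 of 12 were at least 2-fold lower, and of 0.18 on t10,c12-CLA, where 1 of 12 was 2-fold higher. Those lower on c9,t11-CLA were Cyp4a14, Acot1, Vnn1, Ehhadh and Cyp4a10, at -2.61, -2.25, -2.05, -1.50 and -1.04, and the one higher on t10,c12-CLA was Pdk4 at 1.01. Between the isomers 5 of 12 were 2-fold higher on t10,c12-CLA, Cyp4a14, Vnn1, Acot1, Ehhadh and Acadm, a mitochondrial acyl-CoA dehydrogenase at 1.02. On c9,t11-CLA, where Me1 stood at -1.09, 8 of the 12 targets were below 0 and 4 above. This split depended on the scaling. After equal medians 12 of 12 were below 0, with a median of -0.87 beside -0.16 over all genes. After quantile normalization 10 of 12 were below 0, with a median of -0.62. On t10,c12-CLA, where Me1 stood at 0.92, Pdk4 alone among the 12 was as high. Pdk4 stood at 0.03 on c9,t11-CLA. The part of PPARA in the signals of Me1 was not tested.

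Targets of NRF2, the oxidative stress factor that acts at antioxidant elements, had medians of 0.12 on c9,t11-CLA and -0.00 on t10,c12-CLA over 13 genes, the former -0.07 after equal medians. On t10,c12-CLA 3 of 13 were at least 2-fold higher, the glutathione transferases Gstm2, Gstm3 and Gsta2 at 2.46, 1.85 and 1.14, and 1 was 2-fold lower, Gstm1 at -1.17. Another probe set for Gstm2 gave a difference of -0.00 and another for Gstm1 gave -0.01, whereas another for Gstm3 gave 2.48. This family shares near-identical sequence, so its members are uncertain. On c9,t11-CLA Gstm2 and the exporter Abcc3 were the 2 of 13 past 2-fold, at -1.80 and -1.32. Between the isomers the median was 0.20. There 2 of 13 were at least 2-fold higher, Gstm2 and Gstm3 at 4.26 and 1.23, and 1 was 2-fold lower, Gstm1 at -1.87. The part of NRF2 in the signals of Me1 was not tested.

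Thyroid hormone responsive genes were compared because Thrsp and Me1 respond to this hormone. All 5 measured genes were below 0 on c9,t11-CLA, with a median of -0.27, and 1 of 5 was above 0 on t10,c12-CLA, with a median of -0.02. Dio1, the deiodinase that activates thyroid hormone, gave 3034 on the control, 1371 on the c9,t11-CLA and 2997 on the t10,c12-CLA array. Dio1 was the 1 of 5 measured genes at least 2-fold lower on c9,t11-CLA, where Me1 was 2-fold lower and Thrsp higher. Between the isomers 5 of 6 measured genes of this list were above 0, with a median of 0.31. The part of thyroid hormone in the members' differences was not tested.

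The genes with the most similar pair of differences from control were sought among 4154 genes above the floor on all 3 arrays, by Euclidean distance in log2 units. With 3 arrays such a likeness rests on 2 differences that share the control array. For Me1 they were Stx2, Rdh16 and Arsa, at distances of 0.14, 0.26 and 0.26. For Pgd they were Grb2, Nus1 and C1qc, at 0.02, 0.07 and 0.08, and for Fasn Ap2a2, Sox18 and 1700017B05Rik, at 0.03, 0.07 and 0.07. The nearest to Thrsp was Bnip2, to Srebf1 Limd1, to Acly Prpf6 and to Slc25a1, by its brighter probe set, Rundc3a, each at 0.01. No member was among the 3 nearest genes of another.

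Markers of other cells were read beside these results, since adipocytes and macrophages also express several members. The hepatocyte markers were above the floor in 9 of 9 cases on the array, with summed signals of 284806, 554177 and 286484. On c9,t11-CLA 8 of 9 were above 0 and 4 at least 2-fold higher than on control, with a median of 0.77, which was 0.32 with 6 of 9 above 0 after quantile normalization. Between the isomers 8 of 9 were below 0 and 4 at least 2-fold lower on t10,c12-CLA, with a median of -0.95. The exception was Ttr, which stood at 1.21, past 2-fold in the opposite direction. Ttr was also the 1 of 9 below control on c9,t11-CLA, at -0.94. On t10,c12-CLA against control 5 of 9 were above 0, with a median of 0.14. The part of these shifts in the members' differences, the low signal of Me1 on c9,t11-CLA included, was not tested. Of 8 adipocyte markers on the array 5 were above the floor on some array, with summed signals of 40184, 42837 and 26568, of which Car3 and Pck1, also expressed by liver, gave most. Adiponectin (Adipoq), the defining adipocyte marker, was below the floor throughout, at 257, 300.1 and 396.5. Cidec gave 43.6, 38.8 and 905.4 and Fabp4 gave 373.3, 529.4 and 798.4, so both were highest on t10,c12-CLA. The 3 adipocyte markers measured on t10,c12-CLA against control, Lep, Car3 and Pck1, were all below 0. Lep gave 2488.3, 2885.9 and 1414.1, above the floor throughout, while its second probe set was below the floor. Lep and Pck1, at -1.03 and -1.01, were the 2 of 4 at least 2-fold lower on t10,c12-CLA than on c9,t11-CLA. Of these 4, 1 was above 0, Fabp4 at 0.59. The part of adipocytes in the members' differences was not tested. Of 12 macrophage markers on the array 11 were above the floor, with summed signals of 82082, 68608 and 108699, and 10 of 11 were above 0 on t10,c12-CLA, with a median of 0.38. Between the isomers 10 of 11 were above 0, with a median of 0.73. C1qc, among them, had nearly the pattern of Pgd, and the part of macrophage number in the signal of Pgd was not tested. The 8 stellate cell and fibroblast markers on the array were all above the floor on some array, with summed signals of 44271, 38532 and 54274. Between the isomers 5 of 5 measured were above 0, with a median of 0.75, and on t10,c12-CLA against control 4 of 7 were above 0, with a median of 0.50. The 6 endothelial markers on the array had summed signals of 2699, 4402 and 5198, which include signals below the floor. Vwf gave 269.2, 253.1 and 1178.4 and Lyve1 gave 39.2, 110.2 and 514.3, above the floor on t10,c12-CLA alone. Between the isomers 0 of 3 measured endothelial markers were above 0, with a median of -0.19. On t10,c12-CLA against control 1 of 2 was above 0. The part of these cells in the members' differences was not tested either.

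The arrays were close in median signal, at 457 to 524. The 2%-trimmed mean was 1501 on each, which the scaling before deposit sets. The highest signal was 70778 on control, 135007 on c9,t11-CLA and 71111 on t10,c12-CLA, so the arrays differed at the bright end. The ratio of signals from the 3′ and the 5′ end, which reads RNA decay, was 1.06, 0.98 and 0.78 for Gapdh, and for beta-actin it was 1.40, 1.89 and 1.35. It was 18.3, 8.41 and 6.71 for pyruvate carboxylase and 2.59, 1.99 and 1.80 for the transferrin receptor, whose signals were below the floor. All 4 ratios were thus lowest on the t10,c12-CLA array, 3 of 4 were highest on control, and that of beta-actin was highest on c9,t11-CLA. The part of these differences in the members' signals was not tested.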

How the data were processed

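Liver RNA on 3 Affymetrix mouse arrays, 1 per diet, was analysed. The deposited values are probe-set intensity signals from MAS5, per the submitters' processing notes, made from biotinylated cRNA of 8 µg total RNA, per the labels. Those notes give no version. The 2%-trimmed mean was the same on each array, so the signals had been scaled before deposit, and they were used as deposited. Detection calls were not used here.

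Symbols came from the platform annotation, updated through gene identifiers in a RefSeq table of GRCm38.p6. Of 12488 probe sets 66 were array controls, 10833 had 1 symbol (10817 matched in RefSeq), 396 had several and 1193 had none, and only those with 1 symbol were used. The floor was the pooled median signal, 490.3. Differences are of log2 signals without a pseudocount, described at 1.5-fold and 2-fold, with no test. Every member is named with each probe set. From each pathway list the genes past 2-fold are named, or else the 3 brightest, with the exceptions given above. Cell type markers were not named by this rule. The 3 genes of most similar pattern per member were sought. Members, lists, sizes and alternatives were chosen with earlier results of these data known. Alternatives were equal medians, quantile normalization, floors at the 25th and 75th percentile, a pseudocount of 50, leaving out probe sets with marked identifiers, and 1 probe set per gene. Counting was tested on simulated data, with planted differences larger than most of the members' and in genes well above the floor. That test therefore does not cover differences of the members' size or signals near the floor. Python 3.11.15, numpy 2.4.6, pandas 2.3.3, scipy 1.17.1 and matplotlib 3.10.9 were used. Precision is limited by having 1 array per diet.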

Additional observations from a re-analysis of the deposited data

How the results depend on the processing

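Of 136 values of single member probe sets under the alternatives, all moved by less than the probe-set scatter and none past 1.5-fold changed sign. The 3 that changed sign, all under equal medians, were Acly on t10,c12-CLA against control at -0.01, and Thrsp and Srebf1 between the isomers at 0.06 and 0.02. The tally of 136 is a weak check. Other floors and the omission of marked probe sets leave a measured value unchanged by construction. Equal medians shift every value of a comparison by 1 amount, which was smaller than that scatter. Only quantile normalization and the pseudocount could move single values by differing amounts. On c9,t11-CLA against control, 2 probe sets were past 1.5-fold as deposited. With equal medians this was 1, Me1, since Thrsp stood at 0.40. With the floor at the pooled 75th percentile, 1511, Me1 was no longer measured on c9,t11-CLA nor Pgd, so that on c9,t11-CLA against control 1 was past 1.5-fold and 0 past 2-fold, and between the isomers 1 was past 1.5-fold and 0 past 2-fold. After quantile normalization 2 in place of 3 were past 1.5-fold between the isomers, and on t10,c12-CLA against control 3 in place of 4 were so without marked probe sets or with the higher floor. The members' median ran from 0.53 to 0.62 on t10,c12-CLA against control, from 0.04 to 0.34 on c9,t11-CLA against control and from 0.08 to 0.45 between the isomers. No paired analysis was possible because each diet has 1 array. Signals near the floor, such as Me1 on c9,t11-CLA, are the least certain.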
